A study of Mus musculus with 22 samples.

Results

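The genes described here encode the nuclear subunits of the mitochondrial respiratory chain and ATP synthase. They were taken from the table by symbol (Ndufa, Ndufb, Ndufc, Ndufs and Ndufv without Ndufaf, Uqcr, Sdha to Sdhd, Cox4 to Cox8 and Atp5, without processed-gene symbols ending in -ps), which gave 87 of the 18487 genes listed. By name, 38 belong to complex I, 4 to complex II, 8 to complex III, 16 to complex IV and 15 to complex V, so that 81 are counted as subunits. The other 6 are caught by the symbol pattern only: Sdhaf1, Sdhaf2, Sdhaf3 and Sdhaf4 are assembly factors of complex II, and Atp5s and Atp5sl are not counted as structural subunits. Ndufa4 is kept under complex I by its name, although its protein is now placed in cytochrome c oxidase. RNA was measured in 22 libraries of E14, a mouse embryonic stem cell line, from 11 groups of 2: cells given Bromosporine, CPTH2, Chaetocin, DZNep, Garcinol, IOX1, MS023, OICR, UNC0379 or Valproate, and the group labelled NC, the reference of every comparison. All groups share the same line, and the labels give no dose, time or vehicle and do not say whether the 2 libraries of a group came from separate cultures, so the p-values measure only the spread between these libraries.

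Electrons from NADH enter the chain at complex I and those from succinate at complex II, which is also an enzyme of the citric acid cycle. Both pass them through ubiquinone to complex III, then through cytochrome c to complex IV (cytochrome c oxidase), and the proton gradient that builds up drives ATP synthesis at complex V. Most subunits are encoded in the nucleus and must match a small set made inside mitochondria, and several subunits of complex IV come in a widely expressed form and a form known from heart and skeletal muscle, lung or testis. The compounds that the labels name in full are epigenetic inhibitors. Valproate inhibits histone deacetylases, Bromosporine binds bromodomains, and DZNep lowers methylation by blocking the recycling of S-adenosylhomocysteine. MS023 inhibits type I arginine methyltransferases, UNC0379 a lysine methyltransferase of histone H4, and Chaetocin a lysine methyltransferase of histone H3. CPTH2 and Garcinol inhibit histone acetyltransferases, and IOX1 oxoglutarate-dependent oxygenases such as histone demethylases. The label OICR alone does not name a compound in full, so no action is given for it.

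The values are normalized read counts rounded to whole numbers. All 22 libraries had the same largest value, 221616, and in each of them exactly 10 genes held it. Library totals lay between 38403767 and 38419709, so depth cannot be read from the table. Atp5b, the catalytic beta subunit of ATP synthase, held the largest value in all 22 libraries and so cannot register any change. Atp5a1, the alpha subunit beside it, took only 7 different values between 49547 and 123593. Levels are therefore compared between groups for a gene, and not between genes. Sums over marker lists add these values as they are listed, so a gene's part of a sum is not its part of the RNA. The stem cell markers were present throughout, with Pou5f1 between 25663 and 39262 and Nanog between 31970 and 123367, while the defining muscle genes Actc1 and Acta1 stayed between 0 and 2 and between 0 and 19. All 87 genes passed the filter on low values (at least 10 in at least 2 libraries).

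The 11 groups were first compared together. A limma F test found 20 of the 87 genes to differ (23%) at an adjusted p under 0.05, where 29.7% of all 17275 genes tested did so. The median range between the lowest and highest group was 0.65 on the log2(value + 1) scale, against 0.98 over all genes, and the median residual SD was 0.19 against 0.27. By complex, the test was passed by 7 of 38 genes in complex I, 2 of 4 in complex II, 3 of 8 in complex III, 3 of 16 in complex IV and 3 of 15 in complex V, and by Sdhaf1 and Sdhaf3. The count fell to between 11 and 13 (12.6% to 14.9%) without either library of Bromosporine, Garcinol, MS023 or UNC0379 or without the first OICR library, where 24.8% to 26.4% of all genes passed. With the replicate number as a block it was 52 (59.8%), and 65.9% of all genes passed. In 10 of the 87 genes the library numbered 2 was the higher in all 11 groups, and in 1 it was the lower. Over all 17275 genes tested these counts were 2123 and 1511. The first share of the 87 was thus close to that of all genes, and the second below it.

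The genes with the smallest and the largest p of that test in each complex were as follows. In complex I the smallest p belonged to Ndufa12, an accessory subunit of the matrix arm (group means from 2962.5 in Chaetocin to 5880.5 in DZNep, adjusted p = 0.0022), and the largest to Ndufv2, an iron-sulfur core subunit (from 6722.5 in Chaetocin to 9158.5 in NC, adjusted p = 0.979). In complex III they were Uqcr10, a small accessory subunit (from 3748.5 in NC to 6540.5 in IOX1, adjusted p = 0.00318), and Uqcrfs1, the Rieske iron-sulfur protein (adjusted p = 0.707). In complex V they were Atp5d, the delta subunit of the central stalk (from 4709 in MS023 to 7858.5 in DZNep, adjusted p = 0.00273), and, after Atp5b, Atp5f1, the b subunit of the peripheral stalk (adjusted p = 0.939). In complex II and complex IV the smallest p belonged to Sdhb and Cox6a2, which are described in full later, and the largest to Sdha (adjusted p = 0.176) and Cox6b2 (adjusted p = 0.776). A large p here does not show that a gene did not change: in Ndufv2, Uqcrfs1 and Atp5f1 the library numbered 2 was the higher in all 11 groups, and with the replicate number as a block their adjusted p was 0.503, 0.0323 and 0.214.

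Each compound was then compared with NC to ask which of these genes moved with it. Calls needed a limma adjusted p below 0.05 and more than a 2-fold difference, and all 10 comparisons share the 2 NC libraries. DZNep had 4 calls among the 87 (2 higher, 2 lower), where 11.4% of all genes tested were called, 5.27% higher and 6.14% lower. Bromosporine and Valproate had 1 each, both lower, where 3.34% and 5.28% of all genes were called (2.77% and 2.55% lower). No member was called with Chaetocin (0.0174% of all genes), CPTH2 (0.00579%), Garcinol (0.00579%), IOX1 (0.116%), MS023 (0.973%), OICR (0.388%) or UNC0379 (0%). At an unadjusted p under 0.05 those comparisons held 0, 0, 6, 32, 5, 8 and 1 of the 87 members. Of all genes 4.72%, 0.944%, 3.62%, 12.4%, 15%, 10.7% and 6.08% did so. The share of the 87 was above that of all genes with Garcinol and IOX1, and below it with the others of these compounds.

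**Figure D1:**
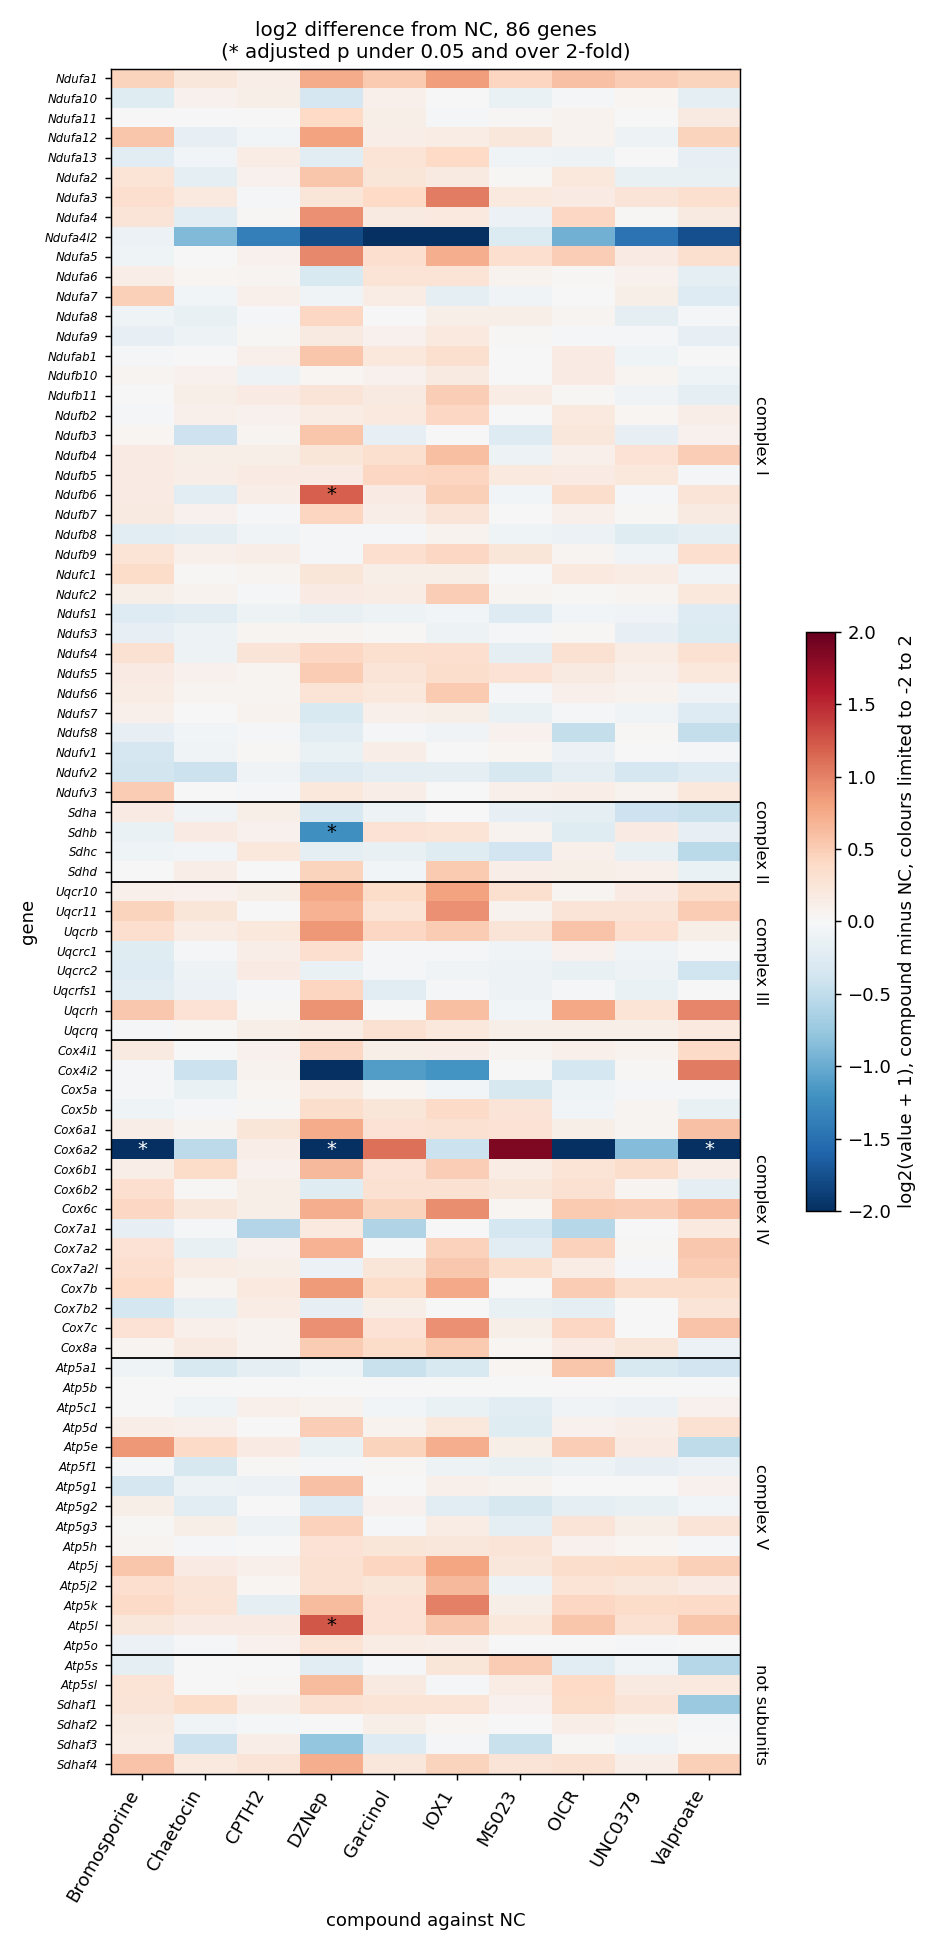
Difference from NC on the log2(value + 1) scale for 86 of the genes (rows, in order of complex) and 10 compounds (columns), red higher and blue lower than NC, colours limited to -2 to 2. Asterisks mark the 6 calls: Cox6a2 with Bromosporine, DZNep and Valproate, and Ndufb6, Sdhb and Atp5l with DZNep.

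One gene stood out over the whole panel. Cox6a2 encodes the heart and skeletal muscle form of subunit VIa of cytochrome c oxidase. It lies at chr7:128205435-128206387 (mm10, minus strand), where its exons overlap those of Itgad on the opposite strand. Since the library kit's use of strand is not stated here, reads of the pair cannot be told apart, and Itgad is not among the genes listed. Its values in the 2 libraries of each group were 317 and 299 in NC, 1016 and 1249 in MS023, 712 and 610 in Garcinol, 342 and 335 in CPTH2, 306 and 171 in IOX1, 269 and 169 in Chaetocin, and 164 and 174 in UNC0379. They were 42 and 67 in OICR, 88 and 9 in DZNep, 11 and 38 in Bromosporine, and 12 and 1 in Valproate. The groups thus ranged over 7.79 on the log2(value + 1) scale, the widest range of the 87, and 4 groups lay below every library of the other 7.

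Cox6a2 fell by 5.92 ± 0.91 on that scale with Valproate (SE, n = 2 libraries a group, limma adjusted p = 0.00136). With Bromosporine it fell by 3.84 ± 0.91 (limma adjusted p = 0.028) and with DZNep by 3.37 ± 0.91 (limma adjusted p = 0.0162). With OICR the difference from NC was -2.51 ± 0.91 (limma adjusted p = 0.302), which was not called although the libraries did not overlap. With MS023 the difference was 1.87 ± 0.91 (limma adjusted p = 0.365) and with Garcinol 1.10 ± 0.91 (limma adjusted p = 0.967), and there too both libraries lay above both of NC. Against the mean of the other 10 groups in place of NC, the MS023 value was 3.49 higher and was called. The Valproate call held when any single library was left out. The Bromosporine call was lost without the first Bromosporine library or without either NC library, and the DZNep call without either NC library, without the second DZNep library (then -1.80) or with the adjustment made over all 10 comparisons together (limma adjusted p = 0.0693).

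The muscle marker list was read beside this gene. Of its 13 genes 8 were listed, and their summed values were 577 and 516 in NC, 258 and 226 in Bromosporine, 616 and 538 in Valproate, 728 and 906 in MS023 and 1083 and 1236 in DZNep. The sum was lowest where Cox6a2 was low in Bromosporine and highest in DZNep, where Cox6a2 was low as well. Des, the muscle intermediate filament gene, was 295 and 293 in NC and fell to 51 and 59 in Bromosporine. Tnni3, a cardiac troponin gene, was 240 and 164 in NC and fell to 46 and 61 in DZNep, while Myh7, a slow myosin gene, rose from 11 and 19 to 294 and 320. Whether these genes had a part in the Cox6a2 values was not tested. In bulk RNA, fewer cells with a transcript and less of it per cell cannot be told apart.

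The partner of Cox6a2 and the forms of subunit VIIa were read beside it. Cox6a1, the widely expressed form of the same subunit, was 13614 and 12371 in NC and 21953 and 17254 in Valproate, a difference of 0.58 ± 0.18 (limma adjusted p = 0.0558). With DZNep it was 19230 and 24752 and rose by 0.75 ± 0.18 (limma adjusted p = 0.00847). In Valproate and DZNep all 4 Cox6a1 libraries thus lay above those of NC, and all 4 Cox6a2 libraries below. Both Cox6a1 libraries lay above NC too in MS023 (15924 and 15924), Garcinol (16436 and 15374) and CPTH2 (15924 and 14713). In those groups both Cox6a2 libraries were above NC as well. In IOX1 Cox6a1 was above NC (16436 and 15612) and Cox6a2 overlapped it. With Bromosporine, where Cox6a2 was called lower, Cox6a1 was 15612 and 12889 and overlapped NC. Cox7a1, the heart and muscle form of subunit VIIa, was listed in every library at 232 to 706, with NC at 517 and 473. Its largest difference from NC was -0.60 ± 0.39 with Garcinol (limma adjusted p = 0.967), and the F test over the groups gave an adjusted p of 0.48. Cox7a2, its widely expressed partner, lay between 1508 and 3646 (F adjusted p = 0.0847), and Cox7a2l, a related protein known from the joining of complexes III and IV, between 2297 and 4807 (F adjusted p = 0.351).

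**Figure D2:**
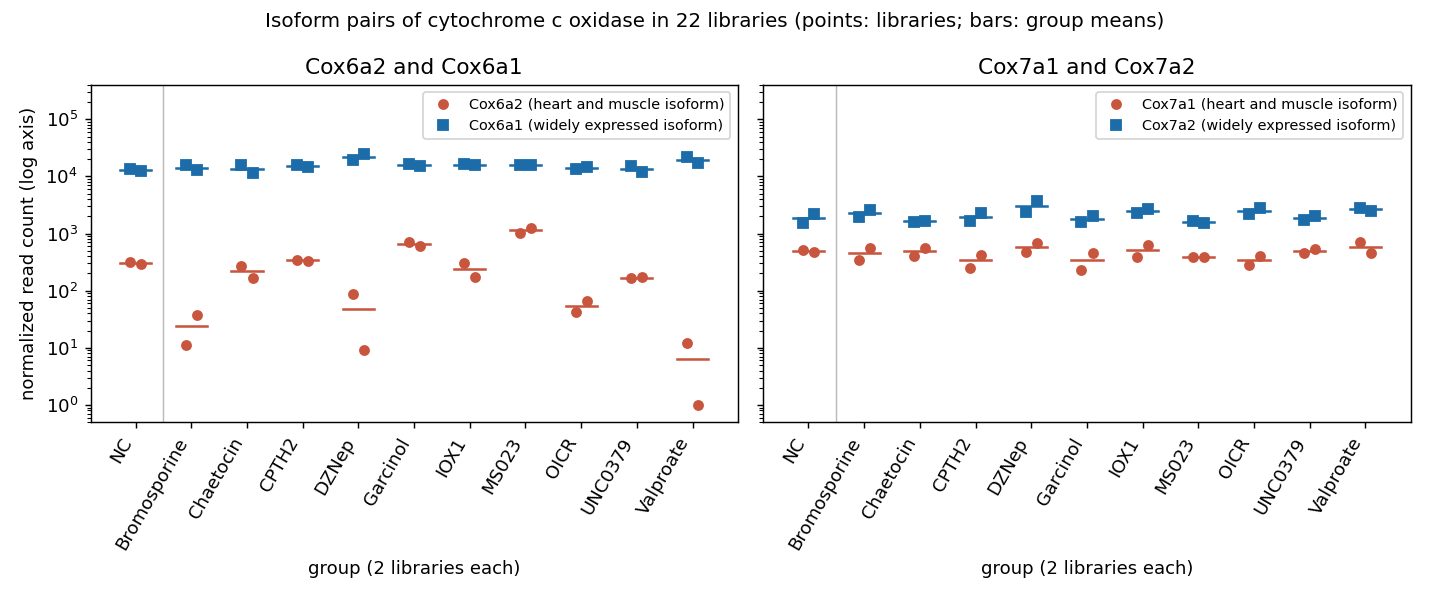
Normalized read counts (log axis) of Cox6a2 and Cox6a1 (left) and of Cox7a1 and Cox7a2 (right) in 11 groups; points are libraries and bars group means. Cox6a2 spans 1 to 1249, whereas Cox7a1 stays between 232 and 706.

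The remaining tissue isoforms of complex IV were read with their partners. Cox4i2, the lung form of subunit IV, lay between 0 and 22 in all libraries and passed no test. Its partner Cox4i1 was 13311 and 15350 in NC and 17598 and 20719 in DZNep, where it rose by 0.42 ± 0.09 (limma adjusted p = 0.00578). It was 19201 and 17963 in Valproate, a rise of 0.38 ± 0.09 (limma adjusted p = 0.0205). So the widely expressed form of subunit IV was higher than NC with both compounds, by 1.34-fold and 1.30-fold. The testis forms Cox6b2 and Cox7b2 were present in these stem cells, at 1866 to 4465 and 1029 to 1613. Cox7b2 differed among the groups (lowest mean 1052.5 in Bromosporine, highest 1611 in Valproate, F adjusted p = 0.0153) without a call against NC. Their partners Cox6b1 and Cox7b rose with DZNep, by 0.65 ± 0.18 (limma adjusted p = 0.0179) and 0.85 ± 0.22 (limma adjusted p = 0.0134). Cox8a, the widely expressed form of subunit VIII, had its highest group mean of 9666.5 in DZNep and its lowest of 6363.5 in Valproate (F adjusted p = 0.172). Cox8b and Cox8c are not analysed here.

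Ndufa4l2, a paralogue of Ndufa4 known from hypoxia, had values between 13 and 261. It was 261 and 124 in NC, the highest group mean, and 13 and 34 in IOX1, the lowest. The difference of -3.03 ± 0.84 with IOX1 missed the threshold (limma adjusted p = 0.168), as did those with the other 9 compounds. Ndufa4 itself was 7235 and 9802 in NC and 12666 and 19820 in DZNep, where it rose by 0.91 ± 0.21 (limma adjusted p = 0.00663).

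The highest count of genes past the test against NC was that of DZNep. Counting every gene past an adjusted p of 0.05 at any fold, 23 of the 87 were higher and 4 were lower than NC, together 31%, where 23.6% of all genes passed, 10.7% higher and 12.8% lower. The median of the 87 was 0.25 on the log2(value + 1) scale, and that of all genes was -0.04. Both DZNep libraries lay above both NC libraries in 42 of the 87 (48.3%; 26.5% of all genes) and below them in 14 (16.1%; 32.4% of all genes). The count of calls over 2-fold rested on single libraries: it was 12 (13.8%; 10.3% of all genes) without the first DZNep library, 8 (9.2%; 10.7%) without the second NC library and 1 (1.15%; 6.87%) without the first NC library. The 27 past the threshold at any fold became fewest without the first NC library, where the share of the 87 fell below that of all genes. Without one of the other 3 that share was not below that of all genes. The next largest count at any fold was 4, with Valproate. Markers of other cell types moved in the same group. Of the 8 fibroblast markers 3 rose with DZNep (Col1a1, Thy1 and Pdgfra), and Dcn, a defining gene, was listed at 0 in all libraries. The list summed to 1732 and 1959 in DZNep and 550 and 1387 in NC. Most of that sum was Postn and Col3a1. Postn was at 677 and 819 in DZNep and 474 and 559 in NC. Col3a1 was at 509 and 716 in DZNep and 4 and 743 in NC. Of 6 trophoblast markers listed, Eomes and Krt8 rose, and Krt18 went from 53 and 46 to 21 and 16 without a call. The list summed to 4024 and 3330 in DZNep and 3712 and 3300 in NC. Most of that sum was Tfap2c, at 2745 and 2576 in DZNep and 3379 and 2712 in NC. Of 6 primitive endoderm markers listed, Pdgfra and Dab2 rose and Gata4 fell from 156 and 154 to 35 and 61. The list summed to 6530 and 4621 in DZNep and 9187 and 5688 in NC. Most of that sum was Lama1, at 6063 and 3882 in DZNep and 8733 and 5324 in NC. None of these sums therefore describes the other genes of its list. Of 10 stem cell markers Zfp42 and Utf1 rose and none passed the threshold as lower. Tdgf1 went from 25722 and 15640 to 11541 and 8477 and Dppa5a from 41903 and 39262 to 28606 and 30833, so that neither overlapped NC. In the other direction, Nanog went from 44793 and 59405 to 92251 and 123367 and Pou5f1 from 28606 and 29454 to 32054 and 33724. Both of these lay wholly above NC. Their part in the result was not tested.

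By complex, the genes that rose with DZNep came from each of them. In complex I, 9 of 38 rose (Ndufa1, Ndufa4, Ndufa5, Ndufa11, Ndufa12, Ndufab1, Ndufb6, Ndufb7 and Ndufs5) and Ndufa10 fell by 0.33 ± 0.10 (limma adjusted p = 0.0325). In complex III, 3 of 8 rose (Uqcr10, Uqcr11 and Uqcrb), all of them small subunits without a redox centre, with changes of 0.70 to 0.87. In complex IV, 5 of 16 rose (Cox4i1, Cox6a1, Cox6b1, Cox7b and Cox7c) and Cox6a2 fell. In complex V, 3 of 15 rose (Atp5d, Atp5g3 and Atp5l). Of the 6 genes that are no subunits, Sdhaf4 and Atp5sl rose and Sdhaf3 fell by 0.77 ± 0.21 (limma adjusted p = 0.0168).

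**Figure D3:**
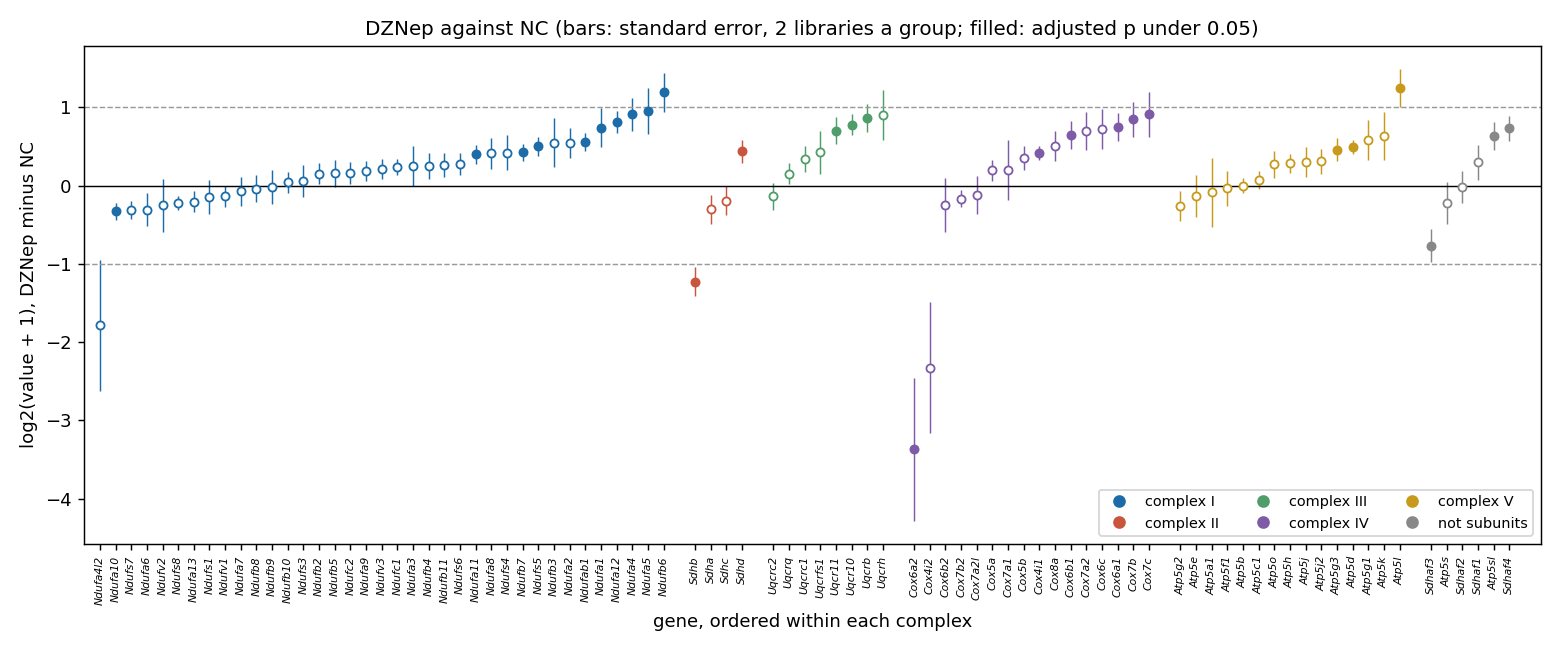
Difference between DZNep and NC (log2(value + 1) scale, bars are standard errors, 2 libraries a group) for 86 of the genes, ordered within its complex; filled points have an adjusted p under 0.05 and dashed lines mark a 2-fold difference. Most filled points lie between 0.40 and 1.25, and Sdhb and Cox6a2 lie below -1.

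Complex II had genes that differed from NC in both directions with DZNep. Sdhb, the iron-sulfur subunit that takes electrons from the flavin of Sdha, was 4120 and 4712 in NC and 2035 and 1744 in DZNep. It fell by 1.23 ± 0.19 (limma adjusted p = 4.75e-04), and no library of the other 10 groups was as low, the lowest of them being 3379 in OICR. The call held when any single library was left out. Sdhd, a membrane anchor of the same complex, was 3600 and 4720 in NC and 5094 and 6150 in DZNep, and rose by 0.44 ± 0.15 (limma adjusted p = 0.0451). This rise did not keep the threshold with the adjustment made over all 10 comparisons together. The highest group mean of Sdhd was 5939.5, in IOX1. Sdha, the flavoprotein, differed by -0.30 ± 0.19 (limma adjusted p = 0.264) and Sdhc, the other anchor, by -0.19 ± 0.19 (limma adjusted p = 0.487). Sdhb was called with none of the other 9 compounds, where its difference from NC lay between -0.25 and 0.28.

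The largest rises were in Atp5l and Ndufb6. Atp5l, subunit g of the membrane part of ATP synthase, was 3483 and 5573 in NC and 8534 and 12870 in DZNep, a rise of 1.25 ± 0.25 (limma adjusted p = 0.00257). Ndufb6, an accessory subunit of the membrane arm of complex I, was 3046 and 4370 in NC and 6211 and 11204 in DZNep, a rise of 1.19 ± 0.25 (limma adjusted p = 0.00352). In both genes the DZNep libraries lay above all libraries of the other groups, and both calls were lost without the second DZNep library or without the first NC library. With the other groups' mean as the reference in place of NC, Atp5l was 0.95 higher and no longer over 2-fold. Atp5l shares 85.4% of its transcript's 31-base words with other annotated transcripts, 9 pseudogenes among them, and Ndufb6 36.1%, so that their reads could be split between copies. Sdhb shares 0%. Exons of Gm30934 and Smim27 overlap those of Atp5l and Ndufb6 on the opposite strand.

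The starts of these genes are shown because Sdhb fell while the others rose, and because nuclear subunit genes are known as targets of NRF1, GABPA and YY1. RefSeq promoter windows of 300 bases around a start were found for 73 of the 87 genes, 6 of them with 2 starts. Letters of 3 motifs were searched on both strands, GCGCATGC for NRF1, CCGGAAG for GABPA and AAGATGGC for YY1, and matches are in capitals. The windows, read 5′ to 3′ on the strand of the gene (GRCm38.p6), are Sdhb at chr4:140961021-140961320 (plus strand), Atp5l at chr9:44920693-44920992 (minus strand), Ndufb6 at chr4:40279372-40279671 (minus strand) and, as the partner of Cox6a2, Cox6a1 at chr5:115348909-115349208 (minus strand).
Sdhb: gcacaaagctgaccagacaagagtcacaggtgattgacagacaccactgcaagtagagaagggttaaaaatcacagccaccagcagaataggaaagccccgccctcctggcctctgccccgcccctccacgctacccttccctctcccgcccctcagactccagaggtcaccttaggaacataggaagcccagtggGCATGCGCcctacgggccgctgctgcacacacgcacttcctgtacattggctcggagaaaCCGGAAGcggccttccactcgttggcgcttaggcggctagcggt
Atp5l: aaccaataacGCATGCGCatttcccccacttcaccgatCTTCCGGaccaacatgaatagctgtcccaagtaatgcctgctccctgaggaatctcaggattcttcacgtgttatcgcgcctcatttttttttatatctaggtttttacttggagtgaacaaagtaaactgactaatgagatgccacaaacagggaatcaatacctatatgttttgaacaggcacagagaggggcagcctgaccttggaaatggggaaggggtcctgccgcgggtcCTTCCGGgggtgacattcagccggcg
Ndufb6: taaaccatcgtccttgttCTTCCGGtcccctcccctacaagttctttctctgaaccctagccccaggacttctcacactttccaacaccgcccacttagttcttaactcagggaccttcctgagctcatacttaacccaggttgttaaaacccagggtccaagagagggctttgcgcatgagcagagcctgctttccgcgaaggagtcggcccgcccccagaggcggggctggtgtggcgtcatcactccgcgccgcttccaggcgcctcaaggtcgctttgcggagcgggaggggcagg
Cox6a1: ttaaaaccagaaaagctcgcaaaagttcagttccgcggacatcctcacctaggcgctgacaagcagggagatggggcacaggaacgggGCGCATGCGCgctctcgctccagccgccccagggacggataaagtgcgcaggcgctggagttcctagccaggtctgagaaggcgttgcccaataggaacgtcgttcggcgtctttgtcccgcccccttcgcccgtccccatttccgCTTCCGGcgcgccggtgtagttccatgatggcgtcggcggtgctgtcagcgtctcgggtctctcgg
The Sdhb window, like those of Atp5l and Cox6a1, held both the NRF1 and the GABPA letters, and that of Ndufb6 held the GABPA letters. Over the panel the NRF1 letters were in 10 of 73 genes (13.7%; 3.05% of all 27025 genes with a window), the GABPA letters in 19 (26%; 9.93%) and the YY1 letters in 11 (15.1%; 3.19%). Among the 21 genes with a window that rose with DZNep, 4, 7 and 1 held them, and among the other 52 it was 6, 12 and 10. A match describes letters in a window only. Cox6a2 is among the 14 genes without a window.

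With the other compounds few of these genes passed an adjusted p of 0.05 at any fold in the fit without a replicate block. With Bromosporine they were 3 of 87 (3.45%; 5.4% of all genes): Cox6a2 fell, and Ndufa12 and Ndufv3, accessory subunits of the matrix arm of complex I, rose. Ndufa12 was 3087 and 3561 in NC and 4807 and 4971 in Bromosporine, a rise of 0.56 ± 0.14 (limma adjusted p = 0.0343). Ndufv3 was 1530 and 1590 in NC and 1993 and 2467 in Bromosporine, a rise of 0.51 ± 0.13 (limma adjusted p = 0.0386). In both, the libraries did not overlap those of NC. Both lost the threshold when either NC library or the second Bromosporine library was left out. Without the first Bromosporine library they did not both keep it.

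With Valproate they were 4 of 87 (4.6%; 10.3% of all genes). Cox4i1 and Atp5d rose, and Cox6a2 and Ndufs8 fell. Ndufs8, an iron-sulfur core subunit of complex I, was 2288 and 2329 in NC and 1619 and 1709 in Valproate, a fall of 0.47 ± 0.09 (limma adjusted p = 0.00461). With OICR it was 1614 and 1718 and fell by 0.47 ± 0.09 as well (limma adjusted p = 0.0308), the only member past the threshold there (1.15%; 0.637% of all genes). The OICR difference lost the threshold when any single OICR or NC library was left out. The Ndufs8 values of Valproate and OICR lay below those of all other libraries, whose lowest was 1907 in DZNep. Of the fibroblast markers, Thy1, Lum and Pdgfra rose with Valproate. Col1a1, Col1a2, Col3a1 and Postn overlapped NC, with Postn at 658 and 0 against 474 and 559, and Dcn was 0. The list summed to 1642 and 1500 in Valproate, with Col3a1 at 307 and 722, against the NC sums given earlier. The part of these markers in the values above was not tested. Over 2-fold, the Valproate count changed when any 1 of the 4 Valproate and NC libraries was left out. In each of those fits the share of the 87 called stayed below that of all genes.

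With IOX1, 1 of 87 passed (1.15%; 0.127% of all genes). Uqcr10 was 3428 and 4069 in NC and 6268 and 6813 in IOX1, a rise of 0.81 ± 0.14 (limma adjusted p = 0.0336). It lost the threshold when any single IOX1 or NC library was left out. The count depended on the fit: it was 11 with the replicate number as a block (12.6%; 5.34% of all genes). With the adjustment over all 10 comparisons it was 5 (5.75%; 1.05%). Both IOX1 libraries lay above both NC libraries in 43 of the 87 genes (49.4%; 19.4% of all genes) and below them in 5 (5.75%; 24.2%). The median of the 87 was 0.21 on the log2(value + 1) scale and that of all genes -0.02. With Garcinol both libraries lay above NC in 36 of the 87 (41.4%; 16.2% of all genes) and below it in 4 (4.6%; 17.4%), with a median of 0.15 and no gene past the threshold. With MS023, Chaetocin, CPTH2 and UNC0379 no member passed either (all genes: 2.21%, 0.0174%, 0.00579% and 0%), and the medians were 0.02, 0.00, 0.06 and 0.03.

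Transcript length moved with these small differences. The annotated transcripts of the 87 genes run from 371 to 4715 bases, and the 32 under 700 bases stood higher against NC than the 29 of 1200 bases or more. With DZNep the median difference was 0.50 in the short and 0.03 in the long genes, and 14 of the 32 short genes but 4 of the 29 long ones rose. With IOX1 the medians were 0.45 and 0.00, with Garcinol 0.25 and 0.02, with Valproate 0.19 and -0.06, with Bromosporine 0.17 and -0.05 and with OICR 0.17 and 0.03. In the remaining 4 comparisons the medians lay between 0.06 and 0.07 in the short and between -0.05 and 0.03 in the long genes. Spearman's rho between difference and length over the 87 genes was negative for all 10 compounds, from -0.44 with IOX1 to -0.05 with CPTH2. This is a description only, since the genes share their libraries and the compounds share NC.

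Genes outside the panel showed the same order by length. Among the other genes with a mean value of at least 1000, the 125 under 700 bases had a median of 0.36 with IOX1 and 0.18 with DZNep, and the 5705 of 1200 bases or more had -0.04 and -0.05. NC had the lowest mean of the 11 groups in 9 of the 32 short genes (28.1%), in 13 of all 87 (14.9%) and in 4.74% of all genes tested. Among all 87 Valproate was lowest more often, in 18 (20.7%; 15.8% of all genes tested). Bromosporine and MS023 were lowest in 10 each (11.5%; 12.9% and 10.3% of all genes tested). The part of transcript length in the results was not tested. Sdhb (1142 bases) and Cox6a2 (680 bases) fell, whereas Atp5l (544 bases) and Ndufb6 (659 bases) are among the short genes that rose.

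**Figure D4:**
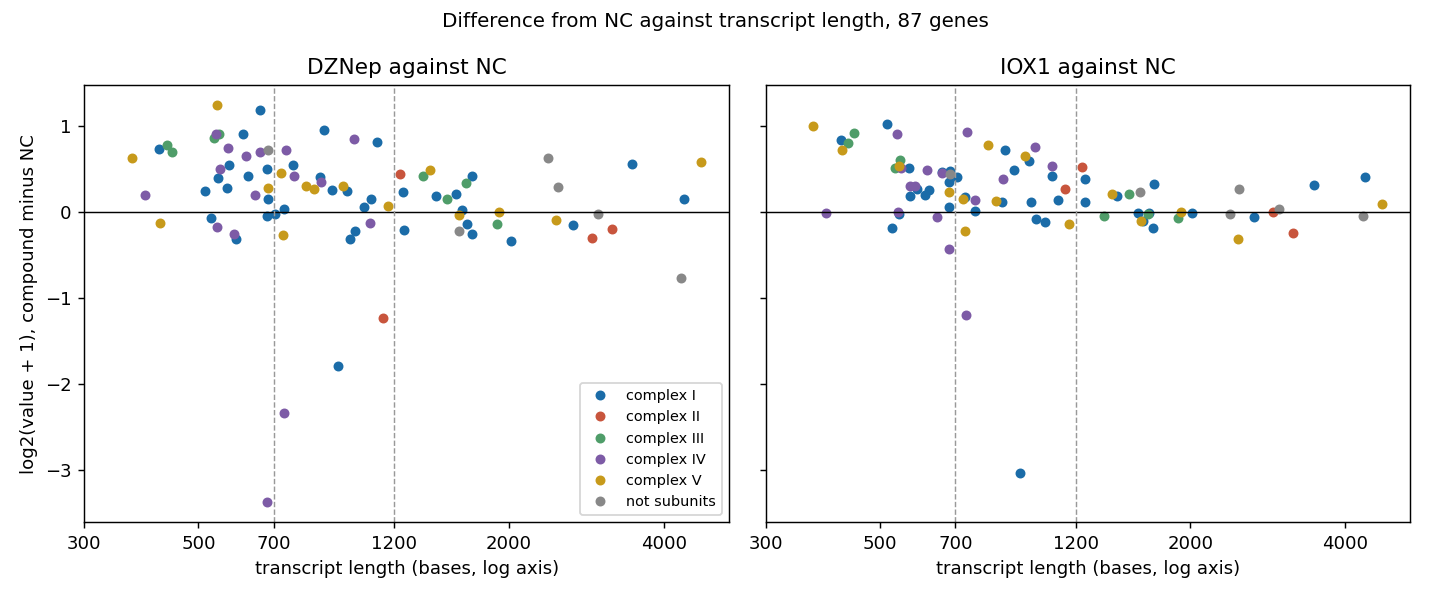
Difference from NC (log2(value + 1) scale) against the length of the annotated transcript (log axis) for the 87 genes with DZNep (left) and IOX1 (right), coloured by complex; dashed lines mark 700 and 1200 bases. Short genes lie mostly above 0 in both panels, with medians of 0.50 and 0.45.

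The wider pathway was read from lists chosen beside the panel. For comparison, 10.7% of all genes tested were higher and 12.8% lower with DZNep at any fold. Over 2-fold, 5.27% of all genes were called higher and 6.14% lower. Of the 52 assembly factors listed, which build the complexes, 15 were higher and 4 lower with DZNep at any fold, and 5 were called over 2-fold, all higher. They were Sco2, a copper carrier for cytochrome c oxidase (197 to 673 in group means, a rise of 1.78), Tmem70, a factor for ATP synthase (1.30), Cox19, Uqcc3 and Cox20. The list includes Sdhaf1 to Sdhaf4, which the symbol pattern also caught. Of the 78 mitochondrial ribosomal proteins 23 were higher and 1 lower with DZNep, with a median of 0.33, whereas the 83 cytosolic ribosomal proteins had 3 higher and 2 lower and a median of 0.00. Of the 17 citric acid cycle enzymes 0 were higher and 5 lower with DZNep, with a median of -0.22.

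The 13 subunits encoded by the mitochondrial genome passed the threshold with none of the 10 compounds, but most lie at the top of the scale, where values come in few steps. mt-Co1 held the largest value, 221616, in all 22 libraries, mt-Nd1 in 20, and 9 of the 13 took at most 8 different values, so that their lack of calls says nothing about stability. With DZNep they lay between -0.35 for mt-Nd5 and 0.39 for mt-Atp6. The 3 cytochrome c genes (Cyc1, Cycs and Cyct) passed with no compound either. Of 18 regulators of mitochondrial biogenesis, 2 were higher and 3 lower with DZNep and 2 were lower with MS023, none over 2-fold. With MS023, 2.21% of all genes passed at any fold. Ucp1, which uncouples the proton gradient from ATP synthesis, fell by 1.91 with Bromosporine, 1.29 with DZNep and 2.57 with Valproate, from a mean of 91.5 in NC. Ucp2, a related carrier, fell by 1.28 with DZNep, from 9523 to 3982. With Bromosporine, Pet100, another factor for cytochrome c oxidase, was the only assembly factor called (261.5 to 537.5, a rise of 1.05), where 3.34% of all genes were called.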

How the data were processed

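RNA of 22 libraries (11 groups of 2) was analysed from the table of normalized read counts that the authors deposited. These values are scores: read counts that the authors normalized and rounded. The submitters' processing notes name bcl2fastq, Bowtie2 2.2.5, RSEM and mm10, and the study's methods, written for its knockdowns, name EDASeq at its full setting. The covariate of that step is not given in the sources used here, depth is unknown, and no interval that needs it is given. In the values, blocks of 10 genes share the top values of each library. This pins the highest genes, forces all libraries to 1 distribution and makes levels of different genes not comparable, so no level per kilobase is given.

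In R 4.3.3 with limma 3.58.1, log2(value + 1) was fitted with 11 group means (eBayes with a trend), for 17275 genes with at least 10 in at least 2 libraries. Tests are two-sided and adjusted by Benjamini-Hochberg within each comparison. The fit had 11 residual degrees of freedom and was tested on simulated data. On this log2(value + 1) scale a fold change understates that of low genes. Members, lists and rules were chosen with earlier results of these data known, and the length classes after seeing the values. Named are all called genes, the tissue isoforms with their partners, and the extremes of the F test in each complex; genes past the threshold at any fold were added. Positions, lengths and shared 31-base words come from GENCODE M21 (18151 of 18487 symbols matched), and promoters from RefSeq. A second table of the authors' group means differed from the first table's means by at most 0. Of the table's columns 0 matched no sample. Libraries of a group correlated at 0.923 to 0.945 over genes. The values of 1 gene are not reported here.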

Additional observations from a re-analysis of the deposited data

How the results depend on the processing

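Of the calls, the counts with Chaetocin, CPTH2, Garcinol and UNC0379 stayed at 0 under all alternatives, and no called value changed sign. When the fit held just 4 libraries, those of a compound and of NC, the counts with Bromosporine, DZNep and Valproate were 0, and no gene past the threshold at any fold kept it. Without the fold minimum the counts were 3 with Bromosporine, 27 with DZNep, 1 with IOX1, 1 with OICR and 4 with Valproate. Adjustment over all 10 comparisons gave 1 with IOX1 (1.15%; 0.44% of all genes), and rescaling by median ratios gave 2 with Valproate (2.3%; 5.46%). A reference made from the other groups' mean gave 1 with MS023 (1.15%; 2.6%). Leaving out 1 library gave 0 to 1 with Bromosporine, 1 to 12 with DZNep, 2 to 4 with Valproate and 11 to 25 for the F test, and the lone library left is then assumed to vary like the other groups. Of the 30 differences past the threshold at any fold only, 30 kept it with a pseudocount of 10, 29 without the filter and 16 with the adjustment over all comparisons. Leaving out 1 library of the compound or of NC at a time gave 120 further fits of these differences, of which 58 kept the threshold and 62 lost it. Of the called values, Cox6a2 with DZNep was lost with the adjustment over all comparisons, and Atp5l with DZNep against the other groups' mean.

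The groups share replicate numbers, but with 2 numbers the labels do not say that these pair the libraries. Deviations of same-numbered libraries correlated at 0.0535 to 0.298 over 55 pairs of groups (51 over 0.1). With the number as a block, 52 genes passed the F test (59.8%; 65.9% of all genes) and 1 was called with IOX1 (1.15%; 1.26%), and all named calls held. At any fold the block gave 41 with DZNep (47.1%; 43% of all genes) and 18 with Valproate (20.7%; 26.7%). It gave 11 with IOX1 (12.6%; 5.34%), 7 with Bromosporine (8.05%; 16.5%) and 1 with OICR (1.15%; 4.09%).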
